A study of Mus musculus with 15 samples.

Results

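The genes described are 4 rows of the count table: Slc13a3 (ENSMUSG00000018459.16), Rab3d (ENSMUSG00000019066.14), 4931406C07Rik (ENSMUSG00000031938.16) and Akr1c19 (ENSMUSG00000071551.14). They are 4 of 57132 gene identifiers, and they were chosen from the measured counts, because their SR9009 libraries lay above their Vehicle libraries and because they lie outside classic drug metabolism. The difference between SR9009 and Vehicle is therefore a property of the choice and is given below as values, with no test. The rule did not use the Chow libraries, so the comparisons with Chow are tested, although they share the SR9009 or the Vehicle libraries with it. The 4 genes split into a pair that stood above Chow in both diet-fed groups (Slc13a3 and Rab3d) and a pair that stood below Chow in Vehicle livers (4931406C07Rik and Akr1c19).

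The study sequenced total liver RNA from male C57BL/6J mice that were 8 weeks old at the start. For 18 weeks SR9009 mice were kept on CDA-HFD, a high-fat diet that lacks choline and has an adapted amino acid content, used as a model of fatty liver with inflammation and scarring. In the last 6 weeks they received SR9009 at 100 mg/kg intraperitoneally each day. Vehicle mice had the same diet and the same weeks of injection with 15% Kolliphor ELP in saline. Chow mice ate standard chow for 18 weeks; whether they were injected is not stated, so diet and injection cannot be told apart in any contrast with Chow. There were 5 SR9009, 5 Vehicle and 4 Chow libraries, and 1 more Chow sample was not analysed here. Hour of collection is not stated either.

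Each library held between 29950509 and 45542335 counts, and 18181 genes passed the filter on low counts, all 4 described genes among them. Levels are given as CPM, the count of a gene relative to the library total, after scaling by TMM, a trimmed mean that sets aside the most extreme genes. The hepatocyte marker list (7 of 7 with counts in each group) summed to 56496 to 72793 CPM in SR9009, 68946 to 76629 CPM in Vehicle and 95820 to 132810 CPM in Chow livers, so every group carried the markers of its labelled tissue. The macrophage list (8 of 8) summed to 1466 to 2011 CPM in SR9009, 1669 to 2552 CPM in Vehicle and 134 to 443 CPM in Chow livers. The stellate cell list (7 of 7) gave 356 to 591, 381 to 461 and 110 to 161 CPM, and the cholangiocyte list (6 of 6) 460 to 1147, 413 to 979 and 50.1 to 84.8 CPM, in the same order of groups. Most of the cholangiocyte sum was Spp1, with means of 718, 637 and 50.8 CPM. Clec4f and Marco of the macrophage list had their highest means in Chow livers (97.1 and 10.3 CPM). Lrat of the stellate list had a mean of 20.9 CPM in SR9009 and Chow livers and a slightly lower one in Vehicle livers. All other genes of the macrophage, stellate and cholangiocyte lists had higher means in both diet-fed groups than in Chow. Livers of both diet-fed groups thus lay apart from Chow livers on the sums of these lists, and the part of this in the results was not tested. Whether cells of a type were fewer or held less of an RNA cannot be told apart in bulk tissue. Diet-fed libraries also fell into a class with few (63 to 82) and a class with many (158 to 243) olfactory, vomeronasal and trace amine receptor genes detected, 2 SR9009 and 2 Vehicle libraries being in the first and 3 and 3 in the second; all Chow libraries (50 to 113) were below the boundary of 120. Within the class with few, mean levels were 129 CPM in SR9009 and 99.4 CPM in Vehicle livers for Slc13a3, 40.3 and 23.6 CPM for Rab3d, 277 and 182 CPM for 4931406C07Rik, and 59.9 and 38.5 CPM for Akr1c19. Within the class with many they were 136 and 77.8 CPM, 42.05 and 28.8 CPM, 265 and 142 CPM, and 59.6 and 42.02 CPM for the same genes. Since the genes were chosen for SR9009 libraries above Vehicle libraries, that order is fixed in each class by the choice.

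SR9009 is a synthetic agonist of REV-ERB alpha and beta, nuclear receptors that repress transcription in the circadian clock of hepatocytes. Slc13a3 encodes NaDC3, a plasma membrane transporter that takes up succinate, alpha-ketoglutarate and other dicarboxylates together with sodium, best known from the kidney proximal tubule. Rab3d encodes a small GTPase of the Rab3 family, which sits on secretory granules and vesicles and is best known from exocrine glands. Akr1c19 belongs to the aldo-keto reductases, enzymes that reduce aldehydes and ketones, steroids among them, with NAD(P)H as the electron donor. 4931406C07Rik has only a name taken from a cDNA clone; the reference table lists it as protein-coding and gives no product, so no function is stated for it.

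The promoters of the 4 genes are shown because all 4 genes were chosen for one direction under a compound that acts on nuclear receptors. Each is the RefSeq window from 250 bases before to 50 bases after the start site in GRCm38.p6, an earlier build than the GRCm39 named in the submitters' processing notes. The windows lie on the minus strand at chr2:165473148-165473447 (Slc13a3), chr9:21918134-21918433 (Rab3d) and chr9:15306399-15306698 (4931406C07Rik, the most upstream of its 3 listed windows), and on the plus strand at chr13:4233490-4233789 (Akr1c19). Capitals mark matches, on either strand, to CACGTG (the E-box of clock factors) or to TGACNNNGC (the core of the antioxidant response element).
Slc13a3: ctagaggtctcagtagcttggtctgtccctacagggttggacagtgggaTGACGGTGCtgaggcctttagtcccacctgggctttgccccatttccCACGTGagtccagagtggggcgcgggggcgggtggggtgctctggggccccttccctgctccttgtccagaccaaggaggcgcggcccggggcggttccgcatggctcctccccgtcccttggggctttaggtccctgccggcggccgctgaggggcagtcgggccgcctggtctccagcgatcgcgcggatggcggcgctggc
Rab3d: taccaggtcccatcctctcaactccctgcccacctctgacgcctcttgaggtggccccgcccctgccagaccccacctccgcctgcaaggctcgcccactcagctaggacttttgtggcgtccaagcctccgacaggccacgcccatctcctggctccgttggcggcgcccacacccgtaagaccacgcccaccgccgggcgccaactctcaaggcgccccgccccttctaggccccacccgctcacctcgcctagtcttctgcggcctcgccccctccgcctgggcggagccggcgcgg
4931406C07Rik: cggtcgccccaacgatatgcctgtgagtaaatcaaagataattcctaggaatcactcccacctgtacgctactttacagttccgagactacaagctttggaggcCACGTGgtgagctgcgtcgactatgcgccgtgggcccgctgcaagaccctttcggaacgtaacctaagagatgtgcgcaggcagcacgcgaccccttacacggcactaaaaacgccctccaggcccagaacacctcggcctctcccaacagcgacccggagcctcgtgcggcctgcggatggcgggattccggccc
Akr1c19: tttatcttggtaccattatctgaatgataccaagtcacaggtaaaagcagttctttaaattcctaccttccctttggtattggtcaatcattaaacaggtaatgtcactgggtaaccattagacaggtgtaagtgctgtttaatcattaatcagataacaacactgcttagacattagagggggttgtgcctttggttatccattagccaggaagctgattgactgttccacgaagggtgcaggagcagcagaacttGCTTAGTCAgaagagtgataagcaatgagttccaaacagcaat

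The E-box letters stood 154 bases before the start site in Slc13a3 and 146 bases before it in 4931406C07Rik, and were not in the windows of Rab3d and Akr1c19. Of all 32851 RefSeq windows of this length, 7.15% held CACGTG. The antioxidant core stood 201 bases before the start site in Slc13a3 and 7 bases after its first base in Akr1c19, and 12.4% of all windows held it. Further motifs had no match, on either strand, in the 4 windows. AGGTCA, the core that many nuclear receptors bind, was in 16.3% of all windows. The RORE, the element of REV-ERB and ROR receptors, was in 0.219%, and DR4, an element of the xenobiotic receptors CAR and PXR, in 0.0152%; both contain AGGTCA. TTATGNAA, the D-box of PAR bZIP factors, was in 3.38%. GC content was 69.3% in Slc13a3, 71.0% in Rab3d, 59.7% in 4931406C07Rik and 40.3% in Akr1c19, against a median of 52.7% over all windows, so Akr1c19 alone lay below the median. A match or its absence here describes letters in a short window only.

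Slc13a3 was at 136, 131, 121, 138 and 138 CPM in SR9009 livers (replicates 1 to 5). In Vehicle livers (replicates 1 to 5) it was at 83.99, 62.3, 87.03, 106 and 92.8 CPM. In Chow livers (replicates 1 to 4) it was at 20.6, 25.8, 26.2 and 28.2 CPM. The 3 groups did not overlap: every SR9009 library was above every Vehicle library, and every Vehicle library above every Chow library. Of all tested genes, 25.5% had every SR9009 library and 24.7% every Vehicle library above every Chow library. Means were 132.9 ± 6.97 CPM in SR9009, 86.4 ± 15.9 CPM in Vehicle and 25.2 ± 3.22 CPM in Chow livers (SD, n = 5, 5 and 4). The SR9009 libraries were the most alike, with a coefficient of variation of 5.25% against 18.4% in Vehicle and 12.8% in Chow. The SR9009 mean was 1.54-fold the Vehicle mean in the fit (log2 fold change 0.62), and the lowest SR9009 library was 1.15 times the highest Vehicle library; a separation of this kind was seen in 0.891% of all tested genes (0.979% in the opposite direction), and the 4 genes were picked from the genes so separated. Vehicle replicate 2 held the lowest Slc13a3 of its group, and it also had the lowest sum over 9 pericentral hepatocyte markers (4915 CPM, against 9397 to 11109 CPM in the other Vehicle libraries and 7993 to 10385 CPM in the SR9009 libraries); the part of this in the result was not tested. Without that library the log2 fold change was 0.52.

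Against Chow, Slc13a3 rose in both diet-fed groups. It was 5.27-fold higher in SR9009 livers (95% interval 4.34 to 6.41; log2 fold change 2.40 ± 0.13 SE; adjusted p = 1.96e-09, edgeR's quasi-likelihood test with Benjamini-Hochberg adjustment). It was 3.43-fold higher in Vehicle livers (2.84 to 4.15; 1.78 ± 0.13; adjusted p = 2.55e-08). These calls belong to a wide background, since 30.5% and 29.8% of all tested genes were called higher in SR9009 and in Vehicle than in Chow at an adjusted p under 0.05. Markers of kidney proximal tubule, the tissue best known for this transporter, were low. The 8-gene list summed to at most 2.89 CPM in SR9009, 1.90 CPM in Vehicle and 5.59 CPM in Chow livers. Most of the sum was Lrp2, with means of 1.33, 0.899 and 3.69 CPM in the same order of groups. Slc22a12 went the other way, with means of 0.434, 0.500 and 0.00716 CPM. Kap was at 0 in all libraries, and Slc34a1 was at 0 in all SR9009 and Chow libraries. The other kidney markers had means of at most 0.0682 CPM (Slc22a8 in Vehicle livers). The part of these markers in the result was not tested.

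Rab3d was at 35.4, 48.6, 45.1, 42.4 and 35.2 CPM in SR9009 livers (replicates 1 to 5). In Vehicle livers (replicates 1 to 5) it was at 27.2, 30.5, 28.6, 23.97 and 23.3 CPM. In Chow livers (replicates 1 to 4) it was at 12.8, 13.1, 12.5 and 14.1 CPM. Again no group overlapped another, and the order was SR9009, Vehicle, Chow. The place of SR9009 above Vehicle is fixed by the choice. Every SR9009 library was above every Chow library in 25.5% of all tested genes, and every Vehicle library in 24.7%. Means were 41.3 ± 5.95, 26.7 ± 3.07 and 13.1 ± 0.675 CPM (SD, n = 5, 5 and 4) in SR9009, Vehicle and Chow livers. The Chow libraries lay within a narrow band, with a coefficient of variation of 5.13%, while the SR9009 libraries were spread from 35.2 to 48.6 CPM. SR9009 stood 1.55-fold above Vehicle (log2 fold change 0.63), with the lowest SR9009 library at 1.15 times the highest Vehicle library.

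Rab3d rose against Chow as well, 3.15-fold in SR9009 livers (95% interval 2.67 to 3.71; log2 fold change 1.65 ± 0.11 SE; adjusted p = 1.34e-08, edgeR) and 2.03-fold in Vehicle livers (1.73 to 2.39; 1.02 ± 0.11; adjusted p = 1.41e-06). Calls in the higher direction were made for 30.5% of all tested genes in SR9009 and 29.8% in Vehicle against Chow. Exocrine pancreas and mast cells hold Rab3d, so their markers were checked. Of 11 pancreatic markers Amy2a5 and Ptf1a were at 0 in every library. The sum was 13.6 to 16.7 CPM in SR9009, 12.1 to 31.8 CPM in Vehicle and 37.2 to 48.1 CPM in Chow livers. Most of it was Cela1, with means of 14.3, 15.3 and 43.1 CPM in the same order of groups. The other pancreatic markers with counts had their highest means in Vehicle livers, at most 0.891 CPM (Ctrb1). Vehicle replicate 2 held the highest Cela1 (21.9 CPM) and the highest Rab3d of its group. The mast cell list (7 of 7 genes with a count in SR9009 and Vehicle, 6 of 7 in Chow, where Fcer1a was at 0) summed to 10.5 to 26.04, 5.49 to 11.9 and 4.52 to 10.4 CPM, mostly Kit. The proteases Cpa3, Mcpt4, Tpsb2 and Cma1 together reached 17.9 CPM in SR9009 replicate 5 and at most 0.789 CPM in the other SR9009, 0.753 CPM in the Vehicle and 0.742 CPM in the Chow libraries; SR9009 replicate 5 held the lowest Rab3d of its group. The part of these markers in the result was not tested.

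**Figure D1:**
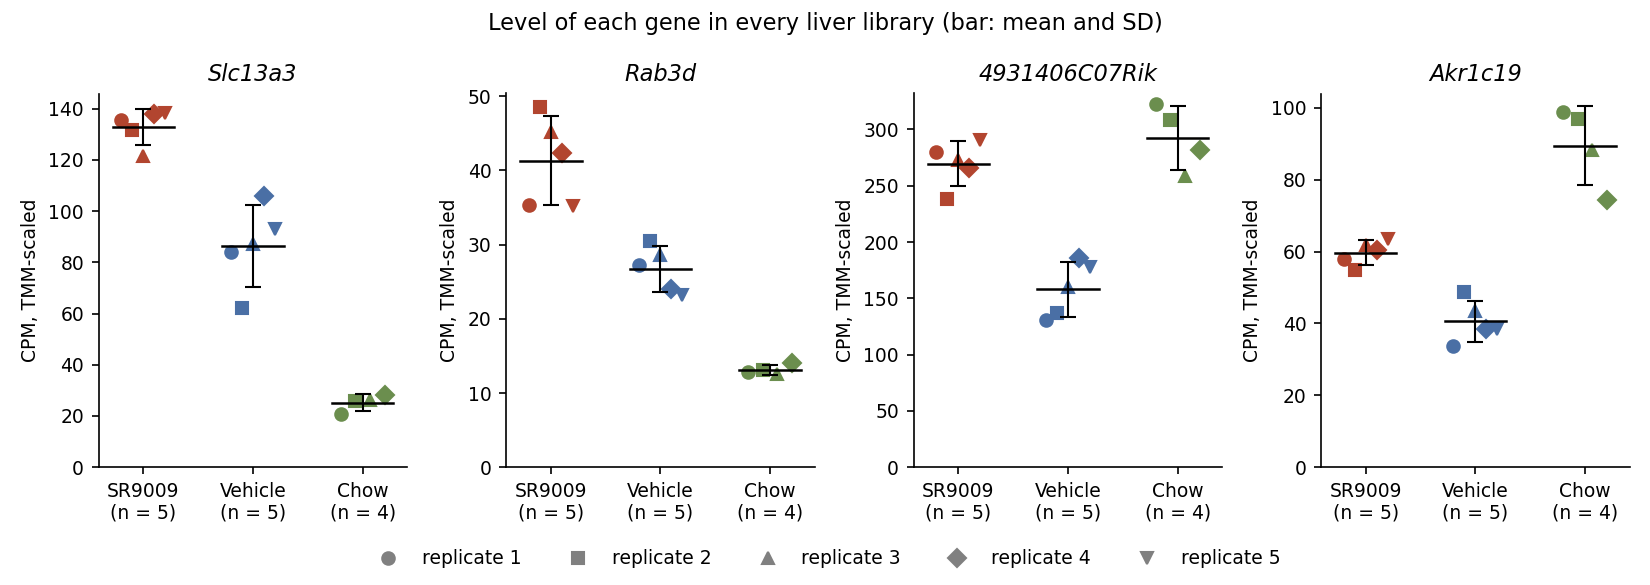
Level of each gene in CPM (y axis, from 0) in every library, by group; points are libraries, horizontal lines means and bars the SD. All 5 SR9009 libraries lie above all 5 Vehicle libraries in every panel, as the choice of genes requires, while Chow is lowest for Slc13a3 (20.6 to 28.2 CPM) and Rab3d (12.5 to 14.1 CPM) and highest or level with SR9009 for Akr1c19 (74.3 to 98.8 CPM) and 4931406C07Rik (258 to 322 CPM).

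4931406C07Rik was at 280.1, 238, 273, 266 and 291 CPM in SR9009 livers (replicates 1 to 5). In Vehicle livers (replicates 1 to 5) it was at 131, 137, 159.7, 186 and 178 CPM. In Chow livers (replicates 1 to 4) it was at 322, 308, 258 and 282 CPM. Here the SR9009 and Chow libraries overlapped, and the Vehicle libraries lay below both. The place of Vehicle below SR9009 is fixed by the choice, and 20.7% of all tested genes had every Vehicle library below every Chow library. Means were 269.7 ± 19.8, 158 ± 24.4 and 293 ± 28.4 CPM (SD, n = 5, 5 and 4) in SR9009, Vehicle and Chow livers. SR9009 stood 1.71-fold above Vehicle (log2 fold change 0.77), the widest separation of the 4, with the lowest SR9009 library at 1.28 times the highest Vehicle library.

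4931406C07Rik fell in Vehicle livers to 0.540 of its Chow level (95% interval 0.460 to 0.635; log2 fold change -0.89 ± 0.11 SE; adjusted p = 5.31e-06, edgeR); 25.4% of all tested genes were called lower in Vehicle than in Chow. The SR9009 livers were at 0.921 of the Chow level, with an interval of 0.784 to 1.08 (log2 fold change -0.12 ± 0.11; adjusted p = 0.375), and the call was not made; the interval does not show that the groups were alike. The direction of this last value depends on the scaling, and it was 0.01 (adjusted p = 0.961) with the receptor gene class as a term. TMM factors were 1.02 to 1.14 in SR9009, 1.08 to 1.15 in Vehicle and 0.753 to 0.824 in Chow libraries, and with library totals alone the median log2 fold change of all genes moved to 0.47 in SR9009 against Chow and 0.50 in Vehicle against Chow. On totals the split of calls moved too: 86.3% of the genes called between SR9009 and Chow were higher in SR9009, against 54.3% with TMM, and 88.3% of those called between Vehicle and Chow were higher in Vehicle, against 54.0%. On that scale 4931406C07Rik was called higher in SR9009 than in Chow (0.33, adjusted p = 0.00973), which is -0.14 relative to the median of all genes; the fall in Vehicle stayed called (-0.41, adjusted p = 0.00225).

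Akr1c19 was at 57.98, 54.8, 61.8, 60.5 and 63.5 CPM in SR9009 livers (replicates 1 to 5). In Vehicle livers (replicates 1 to 5) it was at 33.8, 48.9, 43.4, 38.4 and 38.5 CPM. In Chow livers (replicates 1 to 4) it was at 98.8, 96.8, 88.2 and 74.3 CPM. No group overlapped another, and the order was Chow highest, SR9009 between, Vehicle lowest. Of all tested genes, 21% had every SR9009 library and 20.7% every Vehicle library below every Chow library. Means were 59.7 ± 3.40, 40.6 ± 5.74 and 89.5 ± 11.1 CPM (SD, n = 5, 5 and 4) in SR9009, Vehicle and Chow livers. SR9009 stood 1.47-fold above Vehicle (log2 fold change 0.56), and the lowest SR9009 library was 1.12 times the highest Vehicle library, the narrowest gap of the 4. Vehicle replicate 2, lowest of its group for Slc13a3, was the highest of it for Akr1c19.

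Akr1c19 fell against Chow in both diet-fed groups, to 0.667 of the Chow level in SR9009 livers (95% interval 0.573 to 0.776; log2 fold change -0.58 ± 0.10 SE; adjusted p = 0.000154, edgeR) and to 0.453 in Vehicle livers (0.390 to 0.528; -1.14 ± 0.10; adjusted p = 2.33e-07). Calls in the lower direction were made for 25.7% and 25.4% of all tested genes. With library totals in place of TMM the SR9009 value was -0.13 and was no longer called (adjusted p = 0.299), or -0.60 relative to the median of all genes, and the Vehicle value was -0.65 (adjusted p = 8.15e-05). Measured between the Vehicle and Chow means on the TMM scale, the SR9009 mean of Akr1c19 lay 39.1% of the way to Chow and that of 4931406C07Rik 82.8%. For Slc13a3 and Rab3d the share was -76.0% and -108%, that is, away from Chow. The genes were picked for SR9009 above Vehicle, so the choice fixes the direction of each share, and its size is not independent of the choice. The shares of 4931406C07Rik and Akr1c19 do not hold on library totals, where 4931406C07Rik was above Chow in SR9009 livers and Akr1c19 was nearer to Chow.

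**Figure D2:**
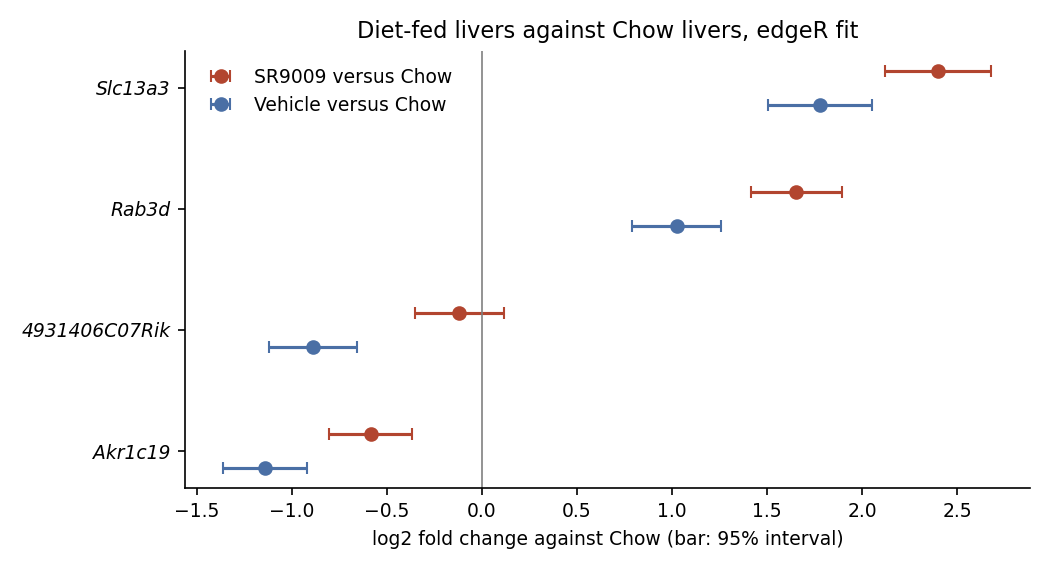
Log2 fold change against Chow (x axis) of each gene, SR9009 above and Vehicle below, with 95% intervals from the edgeR fit. Slc13a3 (2.40 and 1.78) and Rab3d (1.65 and 1.02) lie right of 0 in both groups, Akr1c19 (-0.58 and -1.14) left of it in both, and for 4931406C07Rik only the SR9009 interval (point at -0.12) spans 0.

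Per kilobase of the longest coding transcript in the reference, mean levels were 97.9 CPM for 4931406C07Rik, 37.7 CPM for Slc13a3, 10.6 CPM for Rab3d and 10.2 CPM for Akr1c19 in SR9009 livers. In Vehicle livers they were 57.4, 24.5, 6.88 and 6.96 CPM for the same genes. In Chow livers they were 106, 7.15, 3.38 and 15.4 CPM, so Akr1c19 stood above Slc13a3 in Chow livers and below it in both diet-fed groups. These levels and their order depend on the length used. Per kilobase of all annotated exons, 4931406C07Rik was at 24.8 CPM and Slc13a3 at 25.5 CPM in SR9009 livers, at 14.5 and 16.6 CPM in Vehicle livers and at 26.9 and 4.83 CPM in Chow livers, so Slc13a3 came first in both diet-fed groups on that scale. Reads shared with other genes could touch 2 of the 4: 5.95% of the stretches of 50 bases in the 4931406C07Rik transcript also occur in Taf1d, whose locus overlaps it, and 4.18% of those in the Akr1c19 transcript occur in other genes, mainly the pseudogene Marcksl1-ps4. No such stretch of Akr1c19 occurs in another aldo-keto reductase, and none was shared for Slc13a3 or Rab3d.

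Akr1c19 was set beside its enzyme family. Of 15 tested aldo-keto reductases other than Akr1c19, 0 were called in either direction between SR9009 and Vehicle in edgeR and 0 in DESeq2, and 2 had an unadjusted p under 0.05; their median log2 fold change was 0.14, beside 0.00 over all tested genes, of which 0.242% were called (0.165% higher and 0.077% lower) in edgeR. DESeq2 called 212 of all genes, against 44 in edgeR. Akr1c13 and Akr1c12 flank Akr1c19 on chromosome 13 in the reference. Akr1c13 averaged 68.7 ± 8.97 CPM in SR9009 livers and 61.9 ± 6.85 CPM in Vehicle livers (log2 fold change 0.15 ± 0.10 SE, adjusted p = 0.838), and Akr1c12 averaged 42.6 ± 6.14 and 42.4 ± 5.26 CPM (0.01 ± 0.11, adjusted p = 0.995). A p that misses the threshold does not show that these relatives were unaffected, and their difference from Akr1c19 was not tested.

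Against Chow the aldo-keto reductases went both ways. In SR9009 livers 5 of 15 rose and 7 fell (median -0.37, beside 0.02 over all tested genes), and in Vehicle livers also 5 rose and 7 fell (median -0.50). With library totals the counts were 6 higher and 4 lower in SR9009, and 6 higher and 5 lower in Vehicle. Of all tested genes, 56.2% were called in either direction in SR9009 and 55.2% in Vehicle against Chow, so a share of 12 in 15 stands beside a wide background. Akr1b3, the aldose reductase that turns glucose into sorbitol, rose by 1.54 ± 0.09 in SR9009 and 1.48 ± 0.09 in Vehicle on the log2 scale, and Akr1b10 by 2.14 ± 0.19 and 2.12 ± 0.19. Akr1c12 fell in both groups (log2 fold change -1.22 ± 0.11 in each). Akr1d1, the steroid reductase of bile acid synthesis, fell as well (-1.24 ± 0.13 in SR9009 and -1.45 ± 0.13 in Vehicle). The adjusted p of these 4 genes was 1.1e-06 or less in both contrasts.

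Slc13a3 was set beside other carriers of di- and tricarboxylates and related substrates. Of 12 tested besides Slc13a3, 0 were called higher and 1 lower between SR9009 and Vehicle, with a median log2 fold change of -0.03. Of all tested genes, 0.165% were called higher and 0.077% lower. An unadjusted p under 0.05 was seen for 4 of the 12 carriers, beside 1323 of all 18181 tested genes. Of these carriers Slc25a1 was higher in SR9009 livers, and Slc25a22, Slc13a5 and Slc16a1 were lower. The carrier called was Slc25a22, a mitochondrial glutamate carrier, which fell to 134.7 ± 9.96 CPM in SR9009 livers, against 202 ± 17.0 CPM in Vehicle livers (log2 fold change -0.59 ± 0.11 SE, adjusted p = 0.0373); leaving out single libraries ended this call in 10 of 14 cases, with adjusted p as high as 0.128. Only without Vehicle replicate 2, Vehicle replicate 5, Chow replicate 1 or Chow replicate 4 did it hold. Against Chow 1 carrier rose in each diet-fed group, while 8 fell in SR9009 livers (median -0.67) and 7 in Vehicle livers (median -0.69). The shares over all tested genes were 30.5% higher and 25.7% lower for SR9009, and 29.8% higher and 25.4% lower for Vehicle. With library totals 3 were higher and 4 lower in SR9009, and 4 higher and 4 lower in Vehicle. Slc13a2, a low-affinity dicarboxylate transporter of the same gene family, was at 0.246 ± 0.0735 CPM in SR9009, 0.186 ± 0.0981 CPM in Vehicle and 6.95 ± 1.92 CPM in Chow livers, a fall in both (log2 fold change -4.81 ± 0.34 in SR9009 and -5.18 ± 0.34 in Vehicle; adjusted p = 1.65e-08 and 1.04e-08, edgeR). The mitochondrial citrate carrier Slc25a1 fell too (log2 fold change -0.64 ± 0.09 in SR9009 and -0.86 ± 0.09 in Vehicle livers). So did the aspartate-glutamate carrier Slc25a13 (-0.93 ± 0.08 and -0.87 ± 0.08). The carrier that rose, named after its value was seen, was the citrate transporter Slc13a5, at 4.14 ± 0.966 CPM in SR9009, 7.24 ± 2.43 CPM in Vehicle and 1.75 ± 0.836 CPM in Chow livers (adjusted p = 0.00335 and 5.75e-05 against Chow). Slc13a3 and Slc13a5 were thus above, and Slc13a2 below, their Chow levels in both diet-fed groups. Between SR9009 and Vehicle, Slc13a5 was lower in SR9009 livers (log2 fold change -0.81 ± 0.28 SE, adjusted p = 0.396, edgeR). That direction is opposite to Slc13a3, which was picked for being higher.

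Rab3d was set beside genes that work with Rab3 and Rab27 GTPases in vesicle release. Of 19 tested, 0 were called between SR9009 and Vehicle in edgeR and 0 in DESeq2, 1 had an unadjusted p under 0.05, and the median log2 fold change was 0.06. Against Chow 9 rose and 3 fell in SR9009 livers (median 0.92), and 9 rose and 4 fell in Vehicle livers (median 0.69). The 12 and 13 of 19 called stand beside 56.2% and 55.2% of all tested genes called in SR9009 and Vehicle, shares of about the same size. With library totals 14 were higher in SR9009 and 13 in Vehicle, and 0 were lower in either. Myo5a, a myosin that carries vesicles along actin, was at 19.1 ± 4.16 CPM in SR9009, 23.2 ± 4.19 CPM in Vehicle and 0.895 ± 0.247 CPM in Chow livers. Rab3il1, an exchange factor that activates Rab proteins, rose by 1.60 ± 0.15 and 1.61 ± 0.15 on the log2 scale in SR9009 and Vehicle livers, and Sytl2, a Rab27 effector, by 2.47 ± 0.28 and 2.57 ± 0.28. The adjusted p of these 3 genes was 2.42e-06 or less in both contrasts. As with Rab3d, the macrophage, stellate and cholangiocyte marker sums stood above Chow in the same libraries, and their part in the result was not tested.

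Drug metabolism genes are set beside the 4 genes because they were left out of the choice. The log2 fold changes of the 4 were 0.56 to 0.77, while 22 tested genes that answer to the xenobiotic receptors CAR and PXR had a median of 1.08, with 13 called higher and 0 lower between SR9009 and Vehicle, beside 0.165% and 0.077% of all tested genes. That list was written with its rise already known, so the count is no independent evidence. Cyp2c29, Cyp2c55 and Cyp2c37 were its genes with the smallest adjusted p. Cyp2c29 was called lower than Chow in Vehicle livers (log2 fold change -4.27 ± 0.20) and higher than Chow in SR9009 livers (1.64 ± 0.19). So was Cyp2c55 (-1.50 ± 0.18 and 2.64 ± 0.19). Cyp2c37, a P450 enzyme, was at 369 ± 33.7 CPM in SR9009, 96.1 ± 22.7 CPM in Vehicle and 355 ± 19.6 CPM in Chow livers. Like 4931406C07Rik it was lower in Vehicle than in Chow livers (log2 fold change -1.88 ± 0.14, adjusted p = 3.5e-08) and not called between SR9009 and Chow with TMM (0.05 ± 0.14, adjusted p = 0.762); with library totals it was called higher (0.51, adjusted p = 0.00711). Against Chow 10 genes of the list rose and 3 fell in SR9009 livers, and 3 rose and 15 fell in Vehicle livers. Over all tested genes 30.5% rose and 25.7% fell in SR9009, and 29.8% rose and 25.4% fell in Vehicle. With library totals 13 were higher and 2 lower in SR9009, and 4 higher and 10 lower in Vehicle.

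**Figure D3:**
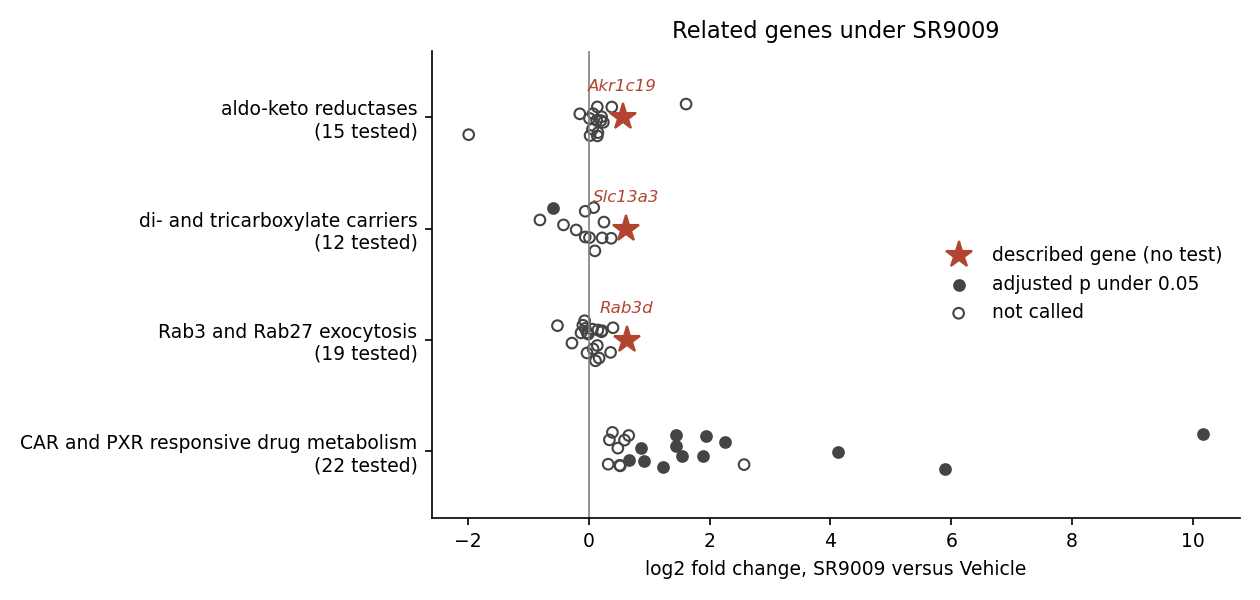
Log2 fold change between SR9009 and Vehicle (x axis) of every tested gene in 4 lists; filled points passed an adjusted p of 0.05, open points did not, and stars are Akr1c19 (0.56), Slc13a3 (0.62) and Rab3d (0.63) beside their own families. Of the first 3 lists only Slc25a22 is filled, at -0.59, while 13 of 22 drug metabolism genes are filled, all right of 0.

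The genes next to the 4 on their chromosomes were not called between SR9009 and Vehicle in edgeR, and 1 of 8, Tmem205, had an unadjusted p under 0.05. The neighbours were Ocstamp and Trp53rka beside Slc13a3 on chromosome 2, Dock6 and Tmem205 beside Rab3d on chromosome 9, Med17 and Taf1d beside 4931406C07Rik on chromosome 9, and the 2 aldo-keto reductases beside Akr1c19. Their log2 fold changes ran from -0.11 ± 0.23 for Ocstamp to 0.29 ± 0.13 for Tmem205, and adjusted p from 0.636 to 0.995. Taf1d, whose locus overlaps 4931406C07Rik, was at 13.7 ± 1.26 CPM in SR9009, 14.3 ± 1.92 CPM in Vehicle and 13.6 ± 0.353 CPM in Chow livers, and Med17, a Mediator subunit, at 16.9 ± 0.950, 17.4 ± 1.24 and 17.5 ± 1.01 CPM. Neither Taf1d nor Med17 was called against Chow with TMM, and both were called higher in both diet-fed groups with library totals. Dock6 fell against Chow (log2 fold change -0.85 ± 0.16 in SR9009 and -0.92 ± 0.16 in Vehicle livers; adjusted p = 0.000374 and 0.000184), opposite to Rab3d beside it. Tmem205 was at 310 ± 56.2 CPM in SR9009, 253 ± 40.4 CPM in Vehicle and 374 ± 27.9 CPM in Chow livers and was called lower in Vehicle than in Chow (log2 fold change -0.57 ± 0.14, adjusted p = 0.00233), a call that was lost with library totals.

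Likeness of pattern was measured over the 14 libraries as the root mean square difference of log2 CPM after each gene was centred on its own mean, among 10234 named genes with a mean of at least 5 CPM. Within the 4, 4931406C07Rik and Akr1c19 differed least (0.261) and Slc13a3 and Rab3d by 0.443, while the differences across these pairs were 0.873 to 1.36. Nearest to 4931406C07Rik were Pgrmc1, a haem-binding membrane protein that binds P450 enzymes (0.184), the lipid antigen-presenting molecule Cd1d1 (0.185) and the kinase Map2k6 (0.191), against a median of 0.454 over all candidates. Pgrmc1 was at 1152 ± 108, 887 ± 124 and 1414 ± 104 CPM and Cd1d1 at 270.1 ± 23.6, 202 ± 21.3 and 363 ± 38.2 CPM in SR9009, Vehicle and Chow livers, so on the TMM scale the SR9009 mean of both lay between those of Vehicle and Chow. With library totals both turned to values above Chow in SR9009 livers that were not called (log2 fold change 0.15, adjusted p = 0.151 for Pgrmc1, and 0.02, adjusted p = 0.858 for Cd1d1). Nearest to Akr1c19 were Ola1 (0.206), the monoacylglycerol lipase Abhd6 (0.207) and Mrap, an accessory protein of melanocortin receptors (0.210), against a median of 0.483.

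For Slc13a3 the nearest genes were Entpd2, an ectonucleotidase (0.315), the matrix protein gene Tgfbi (0.320) and Susd2 (0.323), against a median of 1.05. For Rab3d, Itm2c (0.223) and Tmem47 (0.227) were among the nearest, against a median of 0.742. All 5 were called higher than Chow in both diet-fed groups. Tgfbi was at 196 ± 38.8 CPM in SR9009, 174 ± 13.9 CPM in Vehicle and 40.1 ± 5.12 CPM in Chow livers, and Itm2c at 124 ± 20.9, 109 ± 15.7 and 46.1 ± 2.36 CPM in the same order of groups. None of the 11 genes named here as nearest was called between SR9009 and Vehicle in edgeR (adjusted p from 0.11 to 0.899), and 2 of them, Cd1d1 and Pgrmc1, were called in DESeq2. The libraries share their diet groups, so the 14 points are not independent and likeness is a description only.

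**Figure D4:**
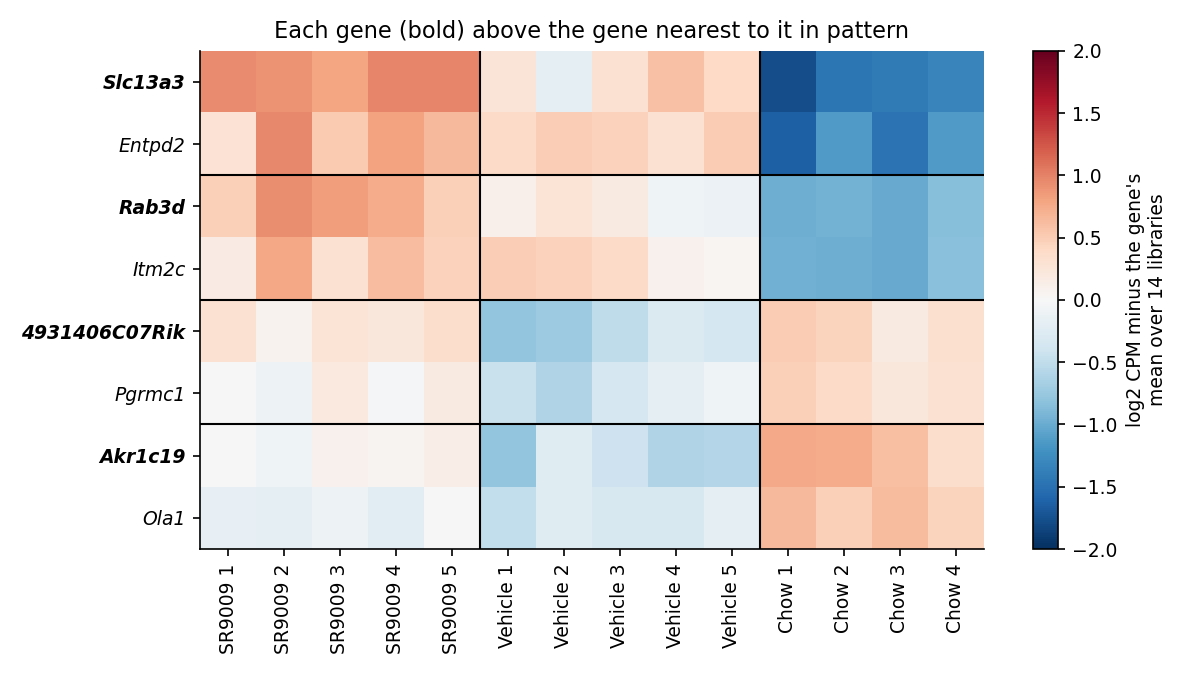
Log2 CPM minus the gene's mean over 14 libraries (colour, from -2 to 2) for each of the 4 genes, in bold, above the gene nearest to it, with libraries in columns by group. The upper blocks are low in all Chow columns, and the lower blocks are below 0 in the Vehicle columns, with SR9009 columns of 4931406C07Rik close to those of Chow.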

How the data were processed

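Counts of 14 mouse liver libraries, of 15 samples described, were analysed. The authors deposited unnormalized read counts for each gene and library. STAR 2.7.11b and GRCm39 are named in the submitters' processing notes. The sources used here do not name the counting tool, annotation release or strand setting, so overlapping genes are uncertain. Symbols from GENCODE M21 (GRCm38) matched 51880 of 57132 identifiers (90.8%).

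Genes were kept by edgeR 4.0.16 filterByExpr (minimum count 10, minimum total 15; R 4.3.3), scaled by TMM and fitted with robust quasi-likelihood models over all 3 groups. Benjamini-Hochberg adjustment covered 18181 genes, with a threshold of 0.05. The scripts were tested on simulated data. No 2 libraries of a group agreed within sampling noise (26 pairs compared; smallest mean chi-square 15.9). Replicates are separate samples, and p-values set the difference of groups against the spread between replicates, as estimated in the fit over all 3 groups. Intervals cover this spread and not the choice of scale.

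The 4 genes, the lists, the alternatives and the naming rule were chosen with earlier results of these data known. The rule named the 4 genes, up to 3 called genes per list and contrast by adjusted p, the nearest tested genes on the chromosome, and the 3 genes nearest in pattern; Ces2a, Cyp3a25, Gstm2 and Gstm3, which it also names, are not discussed, and 1 gene near Rab3d in pattern is not reported here. Alternatives were DESeq2 1.42.0, its size factors, no filter, the compared groups alone, a replicate block, the receptor class as a term and leaving out each library. Library totals without TMM were added after seeing the data.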

Additional observations from a re-analysis of the deposited data

Results flagged for a closer look

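Of 123 sets of library values, those of the 4 described genes and of the other named genes in each group, 4 had 1 library far from the others; chance gives about 5% of such sets. None of the 12 sets of the 4 described genes was among them. Trp53rka was at 9.90 CPM in Vehicle replicate 3, where the other Vehicle libraries were at 8.36 to 8.52 CPM. Dock6 was at 39.1 CPM in Vehicle replicate 4, where the others were at 21.1 to 24.9 CPM. Map2k6 was at 5.42 CPM in the same library, where the others were at 3.77 to 4.23 CPM. Med17 was at 19.0 CPM in Chow replicate 4, where the others were at 16.9 to 17.1 CPM.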

How the results depend on the processing

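The 4 genes kept their direction and their side of the threshold against Chow with DESeq2, its size factors, no low-count filter, the compared groups alone and a replicate block, and in all 14 fits without 1 library. With the receptor class as a term they kept their side of the threshold, but 4931406C07Rik in SR9009 against Chow turned to 0.01, uncalled as before. Without 1 library, log2 fold changes of Slc13a3, Rab3d, 4931406C07Rik and Akr1c19 ran from 2.32 to 2.46, 1.59 to 1.71, -0.17 to -0.07 and -0.66 to -0.53 in SR9009 against Chow, and from 1.69 to 1.88, 0.97 to 1.07, -0.95 to -0.83 and -1.22 to -1.08 in Vehicle against Chow. Library totals without TMM changed 2 of these calls: in SR9009 against Chow 4931406C07Rik went to 0.33 and Akr1c19 to -0.13. Among other named genes, totals turned Cd1d1 to 0.02, Pgrmc1 to 0.15, Med17 to 0.40, Map2k6 to 0.15 and Tmem205 to 0.17 in SR9009 against Chow, and Med17 to 0.47 and Slc25a22 to 0.37 in Vehicle against Chow, and Akr1b10 to -0.01 and Akr1c12 to -0.03 in SR9009 against Vehicle; the median of all genes moved as well, to 0.47 and 0.50.

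Genes called between SR9009 and Vehicle numbered 44, but 212 in DESeq2, 78 with the receptor gene class as a term and 18 to 56 without 1 library (20, 25, 18 and 19 without SR9009 replicate 1, 3, 4 or 5, and 27, 21 and 26 without Vehicle replicate 1, 3 or 4). With a replicate block 15 genes were called, and 0 carriers; the carrier count was also 0 with library totals and 0 to 1 without 1 library. Deviations of same-numbered libraries from their group means had correlations from -0.362 to 0.196. Libraries with different numbers were not compared in this way, so the check cannot exclude a pairing. The block changed no call of the 4 genes. Fits without 1 library hold fewer samples and gave counts both below and above 44. The causes of these differences were not tested. With 4 or 5 libraries a group, the interval of 4931406C07Rik between SR9009 and Chow still covers 0.784 to 1.08.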

Other observations

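Mast cell proteases marked out 1 liver. The genes were singled out after their values were seen, from a marker list of 7. Cpa3, Mcpt4, Tpsb2 and Cma1 summed to 17.9 CPM in SR9009 replicate 5, against 0.0249 to 0.789 CPM in the other SR9009 libraries, 0.0235 to 0.753 CPM in Vehicle and 0.132 to 0.742 CPM in Chow libraries. Without SR9009 replicate 5 the log2 fold change of Rab3d in SR9009 against Vehicle was 0.68, beside 0.63 with it. Rab3d was picked on this contrast, and the part of mast cells in its level was not tested.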
